A study of Neurospora crassa with 94 samples.

Results

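The stk genes of the filamentous fungus Neurospora crassa are the serine-threonine protein kinase genes that carry a numbered stk name. They were taken as every row of the RNA tables named stk followed by a number, which gave 53 genes of 10397. RNA-seq of mycelial cultures grown in constant light had been made for 14 groups of genotype and library series, in 41 libraries of the series' 94 samples. The series are named by the number that opens a library's label or column. The other 53 samples hold ChIP-seq or MNase-seq data, which do not enter here. Series 111 compared 3 single mutants, iaf-1, iaf-2 and acf, with wild type (WT). In series 112 the single mutants set-7 and acf and a triple mutant (acf iaf-1 iaf-2) were set beside WT, and in both series every group had 3 libraries. Series 118, whose labels call it batch 4, held WT, the isw single mutant, the double mutants acf iaf-1 and acf iaf-2 and the triple mutant, each in 3 libraries, and a further double mutant, iaf-1 iaf-2, in 2. The labels give no strain number, mating type, age or time of growth, so how the WT and mutant strains differ beyond the named genes is not known from them. They also do not say that replicates came from separate cultures, so p-values measure the spread among these libraries only, and that spread may be technical.

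Protein kinases move a phosphate group from ATP onto other proteins, and the serine-threonine class does so on serine and threonine residues, which switches the target's activity, place or stability. In fungi such kinases carry signals of nutrients, stress, cell polarity, the cell cycle and development. The genes mutated here act on chromatin: ISWI, from isw, is an ATP-driven remodeler that spaces nucleosomes, ACF and the IAF proteins are partners of it, and SET-7 is the enzyme of Polycomb repressive complex 2 that methylates lysine 27 of histone H3, a mark of silent genes. The question is therefore which kinase genes changed when a remodeler, a partner of it or the Polycomb enzyme was lost. Among the stk genes, stk-6 is also named mst-1 and encodes a germinal centre kinase, stk-4 encodes a kinase of the STE20 family, and stk-12 is related to yeast Rim15 and is known as a brake on cellulase genes. The other members are described here by name, since no role is stated for them that is certain enough to repeat.

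Library totals ran from 5332503 to 9021398 reads in series 111, from 5652592 to 22582163 in series 112 and from 11711993 to 21973649 in series 118. The genes named in the labels were read first. The isw gene (crf4-1) had 3.97 to 5.92 counts-per-million (CPM) in isw against 65.0 to 77.7 in WT, iaf-1 (NCU00412) had 0 to 1.83 CPM in its mutants and iaf-2 (NCU09388) had 0 to 1.36 CPM in its own. The acf gene (crf4-2) was higher, not lower, in libraries labelled acf, with 174 to 196 CPM against 41.0 to 45.5 in WT of series 111 and 67.1 to 83.8 against 23.8 to 36 in series 112. It also stood at 52.4 to 63.6 CPM in acf iaf-1, 47.6 to 63.2 in acf iaf-2 and 54.9 to 67.3 in the triple mutant of series 118 against 28.2 to 37.1 in WT and 27.1 to 32.2 in iaf-1 iaf-2, and at 54.5 to 67.7 in the triple mutant of series 112. A rise of this gene was not limited to labels with acf: in isw it stood at 96.2 to 106.6 CPM, the highest of series 118. In acf of series 111 the iaf-1 gene had 9.41 to 10.8 CPM against 41.0 to 54.7 in WT, though that label does not name it. The set-7 gene kept 3.93 to 4.92 CPM in libraries labelled set-7 against 5.93 to 9.02 in WT. The labels do not say which part of each gene was removed, so these reads leave the set-7 label and every label with acf, double and triple mutants included, unchecked, and those libraries are named below by their labels. In series 111, a pair of libraries in each group was close to identical, with a chi-square per degree of freedom of 1.53 to 1.93 where the 36 other pairs had 6.93 to 127, and WT replicate 2 stood apart from the WT pair. Each close pair may come from 1 library, in which case a group of series 111 holds 2 independent samples, and the SDs, SEs and p-values given for that series, which treat its 3 libraries as separate, are too small. The mating-type gene matA-1 had 13.5 to 19.4 CPM in WT of series 111 and 29.9 to 42.4 in libraries labelled acf iaf-1, 0.898 to 3.35 and 0.393 to 0.619 in WT of series 112 and 118, and at most 0.171 in every other group. The part of mating type in the results was not tested. Of 4 hyphal markers, all had reads in every group, but they were not steady: some were called in several mutants, as given below for acf.

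In WT the stk genes spanned the range from silent to abundant. Per length, their median level was 24.6 transcripts-per-million (TPM) in series 118, 17.1 in series 112 and 29.3 in series 111, against 17.0, 15.6 and 21.6 over all genes. The highest was stk-48, at 186, 198 and 189 TPM in the 3 WT libraries of series 118, followed by stk-50 at 166, 165 and 157 TPM. The 2 did not overlap. Next came stk-58 with 92.0 ± 9.44 TPM (SD, n = 3), stk-24 with 88.9 ± 4.13 and stk-10 with 84.5 ± 6.87, which did not differ from each other beyond their spread. At the other end, stk-35 and stk-41 were without a read in WT of series 118, stk-54 had 0.178, 0.14 and 0 TPM, stk-56 had 0.157, 0.371 and 0 and stk-21 had 0.431, 0.34 and 0.181. The ranges of stk-54 and stk-56 overlapped. The next lowest, stk-36, already had 1.64, 1.24 and 2.48 TPM, and 49 members had at least 1 read in every library of the study.

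The order was not the same in each series. Abundant stk-50 led in series 111 with 289.6 ± 67.0 TPM and in series 112 with 203 ± 27.7, while stk-48 had 33.9 ± 5.54 TPM in series 111, rank 21 of the 53, against 111 ± 6.23 and rank 2 in series 112. Another shift was that of stk-24, rank 36 in series 111 with 19.4 ± 4.23 TPM and rank 4 in series 118. Over the 53 genes the Spearman correlation of WT levels with series 118 was 0.96 for series 112 and 0.82 for series 111, a description over genes that share their libraries. Each mutant is therefore set against WT of its own series.

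**Figure D1:**
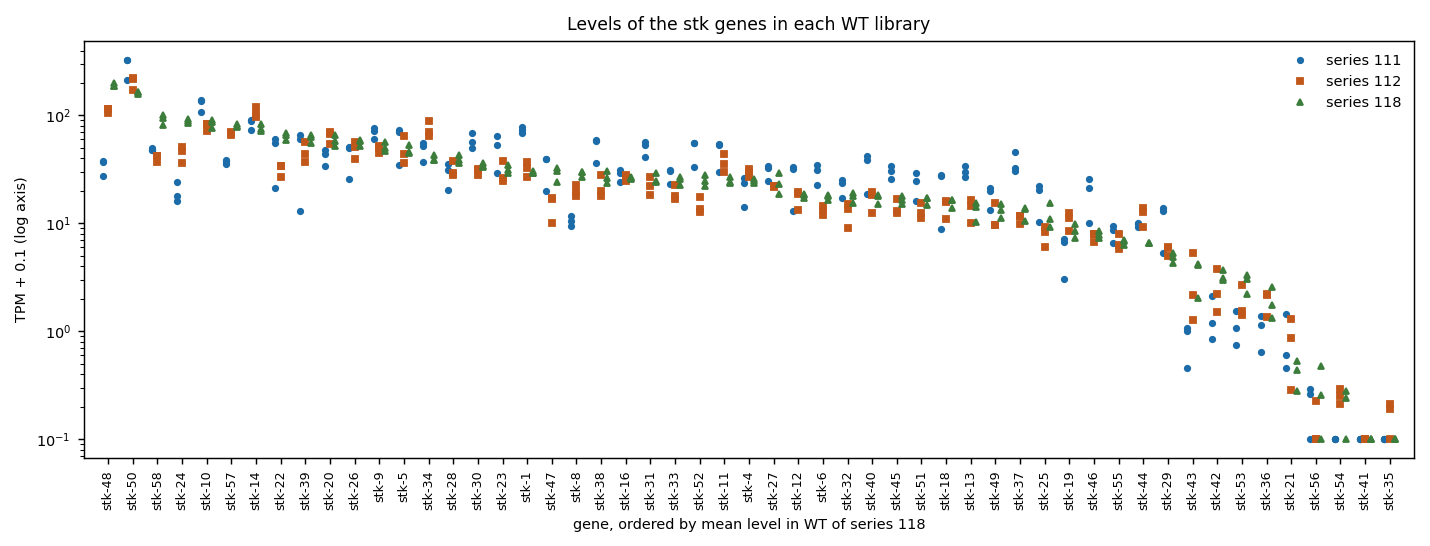
TPM + 0.1 on a log axis for each of the 53 stk genes (horizontal axis, ordered by mean level in WT of series 118) in each WT library; shapes and colours mark the 3 series. Levels run from stk-48 and stk-50 at the top to stk-35 and stk-41 at 0 in series 118.

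By position, 13 of the 53 members lay on chromosome III, 11 on V, 9 on I, 7 on VI, 6 on IV, 4 on II and 3 on VII in the gene order of the RefSeq NC12 table. Chromosome III held stk-35, stk-36, stk-41, stk-42, stk-43, stk-54 and stk-56, 7 of the 9 members with the lowest levels in WT of series 118. Their means there ran from 0 for stk-35 and stk-41 to 3.32 TPM for stk-43. That share was not set against all genes of the chromosome. Of these, stk-41 and stk-42 were direct neighbours. In another stretch of 14 genes, stk-54 was gene 82 from the nearer end of the chromosome, and stk-56, stk-35 and stk-36 were genes 89, 92 and 95.

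These 4 members, near silent or low in WT, gave the largest changes of the family. In series 118 stk-35 was at 0 in the 3 WT libraries and at 15.1, 19.8 and 21.5 TPM in isw. It had 12.0, 13.7 and 10.6 TPM in the triple mutant, 3.07, 3.04 and 2.80 in libraries labelled acf iaf-2 and 1.68, 2.74 and 1.63 in those labelled acf iaf-1. Every library of these groups stood above every WT library, and in bulk RNA more cells of a type and more RNA per cell cannot be told apart. By contrast, the 2 iaf-1 iaf-2 libraries had 0.145 and 0.0758 TPM. In reads, isw held 799 and WT 0, which is 246-fold higher in CPM with a floor of 3 reads over the WT group. The same ratio to the floor was 152-fold for the triple mutant, 36.5-fold for acf iaf-2 and 26.6-fold for acf iaf-1. The adjusted p of limma was 8.69e-13 for isw, 7.17e-12 for the triple mutant, 6.97e-08 for acf iaf-2 and 1.22e-06 for acf iaf-1, with log2 changes of 4.29, 3.70, 1.99 and 1.57 on the scale of log2(TPM + 1), which understates the change of low genes. For iaf-1 iaf-2, the change of 0.15 was not called (adjusted p = 0.629).

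The most abundant of the 4, stk-36, had 1.64, 1.24 and 2.48 TPM in WT and 33.5, 40.5 and 43.2 in isw. It reached 38.5, 50.3 and 30.3 TPM in the triple mutant, 31.7, 24.3 and 35.4 in acf iaf-2 and 20.6, 21.8 and 20.5 in acf iaf-1, so that all 12 of these libraries lay above WT. The log2 changes by limma were 3.86 ± 0.19 (adjusted p = 2.27e-11) in isw, 3.86 ± 0.19 (adjusted p = 2.25e-11) in the triple mutant, 3.5 ± 0.19 (adjusted p = 2.00e-10) in acf iaf-2 and 3.01 ± 0.19 (adjusted p = 1.51e-09) in acf iaf-1. In iaf-1 iaf-2 it was at 3.96 and 2.95 TPM, a smaller rise of 0.69 ± 0.21 (adjusted p = 0.0294) whose call was lost on leaving out WT replicate 1, WT replicate 2 or iaf-1 iaf-2 replicate 1. Its level in isw and in the triple mutant did not separate, with a log2 difference of 0.00 ± 0.19.

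For stk-56, WT had 0.157, 0.371 and 0 TPM, isw 7.98, 11.1 and 8.77 and the triple mutant 7.51, 8.64 and 6.60. Both rose (adjusted p = 2.23e-10 and 6.94e-10, limma), and their pooled CPM were 54.3 (95% interval 24.7 to 149) and 42.8 (95% interval 19.4 to 118) times those of WT. Much smaller levels were seen in the libraries labelled acf iaf-1 and acf iaf-2: 0.936, 0.863 and 1.61 TPM in acf iaf-1 and 0.919, 0.732 and 0.667 in acf iaf-2, with log2 changes of 0.86 ± 0.18 (adjusted p = 0.00179) and 0.60 ± 0.18 (adjusted p = 0.0228), the second lost on leaving out WT replicate 1, WT replicate 3 or acf iaf-2 replicate 1. The remaining one, stk-54, moved from 0.178, 0.14 and 0 TPM in WT to 4.33, 3.90 and 3.95 in isw, 3.68, 5.00 and 3.43 in the triple mutant, 1.64, 1.45 and 2.18 in acf iaf-2 and 1.27, 1.04 and 0.759 in acf iaf-1. All 4 groups lay above WT and were called (adjusted p = 1.34e-08, 1.47e-08, 1.68e-05 and 0.00104). In iaf-1 iaf-2, stk-56 had 0.431 and 0.337 TPM and stk-54 0.0815 and 0.191, and neither was called (adjusted p = 0.439 and 0.925). Intervals here and below cover counting error alone, because reads made by PCR without molecular identifiers may be copies of one molecule. A floor allows for counting error only in the group without reads, not in the group set against it.

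Series 112 gave the 4 genes in set-7, acf and the triple mutant. In CPM, stk-35 had 0, 0.0843 and 0.112 CPM in WT, 0.531, 0.146 and 0.354 in libraries labelled set-7, 1.12, 0.673 and 0.599 in those labelled acf and 4.60, 4.78 and 5.57 in the triple mutant. Pooled CPM were 11.9 (95% interval 3.08 to 101) times those of WT in acf and 69.7 (95% interval 19.0 to 580.0) times in the triple mutant, from 2 reads in WT. Both were called by edgeR's quasi-likelihood test (adjusted p = 0.00279 and 3.18e-07). For stk-56 the values were 0, 0 and 0.112 CPM in WT, 0.354, 0.218 and 0 in set-7, 0.355, 0.489 and 0.524 in acf and 2.87, 2.78 and 3.28 in the triple mutant. The triple mutant rose (ratio 84.1, 95% interval 14.8 to 3351, adjusted p = 1.14e-05), and the rise in acf (adjusted p = 0.0318) rested on 22 reads against 1 and was lost on leaving out WT replicate 1 or 2, or acf replicate 2 or 3. Unlike these, stk-54 stood at a like level in acf and in the triple mutant, at 1.22, 1.9 and 1.65 and 1.41, 2.00 and 1.31 CPM against 0.128, 0.169 and 0.224 in WT (adjusted p = 0.000541 and 0.000131).

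In the same series stk-36 rose in all 3 mutants. WT had 2.18, 2.11 and 1.34 CPM, set-7 8.85, 7.86 and 9.39, acf 16.8, 23.1 and 24.4 and the triple mutant 25.3, 26.8 and 28.7, with no overlap between WT and any mutant. The edgeR changes were 2.28 ± 0.22 (adjusted p = 5.74e-06) in set-7, 3.54 ± 0.21 (adjusted p = 8.40e-09) in acf and 3.96 ± 0.21 (adjusted p = 6.40e-10) in the triple mutant. It was the only one of the 4 called in set-7. The other 3 gave ratios of 4.43 (95% interval 1.0 to 40.4) for stk-35, 3.54 (95% interval 1.34 to 11.8) for stk-54 and 3.41 (95% interval 0.381 to 161) for stk-56 over WT, with adjusted p of 0.123, 0.0691 and 0.46, at 13, 26 and 5 reads in the set-7 libraries. Set directly against acf, the triple mutant was higher for stk-35 by 2.68 ± 0.34 (adjusted p = 1.51e-05) and for stk-56 by 2.79 ± 0.47 (adjusted p = 0.000181). For stk-54 that difference was 0.08 ± 0.34 (adjusted p = 0.856) and was not called, and the call for stk-36 (0.42 ± 0.16, adjusted p = 0.0354) was lost in 5 of the 6 fits that each left out a library.

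In series 111 only stk-36 had enough reads to be tested. It stood at 1.02, 0.585 and 1.24 CPM in WT and 9.20, 8.68 and 7.13 in libraries labelled acf, a rise of 3.41 ± 0.28 (log2, SE; adjusted p = 8.22e-07) by edgeR. That change did not differ detectably from the one in series 112, the interaction being 0.03 ± 0.65 (adjusted p = 0.991, edgeR). This SE was derived from the test statistic and may be unreliable for so small a value. In the iaf-1 libraries it had 0.188, 0.717 and 0.28 CPM and was not called (-1.0 ± 0.46, adjusted p = 0.148). In iaf-2 it had 0.222, 0.254 and 0.372 CPM and was called lower (-1.70 ± 0.48, adjusted p = 0.028), from 7 reads against 20, and the call was lost in 5 of 6 fits that left out a library. For the others, acf held 5 reads of stk-35 and 6 of stk-54 against none in WT. In CPM these were 1.70-fold and 2.04-fold above a floor of 3 reads for WT, without the counting error of the acf reads. Of stk-56 it held 6 against 2, a ratio of 3.06 (95% interval 0.548 to 31.0). The iaf-1 and iaf-2 libraries held no read of stk-35, and 1 read at most of stk-54.

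Between stk-54 and stk-36 lie 10 genes that are not stk members. Of the 6 that could be tested in series 118, 2 were called higher in isw, with a median log2 change of 0.47, and 2 in the triple mutant, with a median of 0.50. Over all genes tested 29.0% and 29.8% were called higher, so these counts were near the background. The 4 stk genes had medians of 3.5 and 3.29. Of them stk-54, stk-56 and stk-35 passed the filter through the groups in which they were high, while stk-36 passed it in WT as well. The count of the 4 therefore gives no support of its own. Transcripts of sexual development stood apart in some of the same groups. The 6 markers of sexual tissue summed to 18286 to 22386 CPM in isw and 5871 to 11795 in the triple mutant against 315 to 428 in WT of series 118, with 4 higher and 1 lower in each, and to 10680.4 to 12092 in the triple mutant of series 112 against 550.1 to 723 in WT. In the double mutants they summed to 864 to 956 CPM in acf iaf-1, 421 to 845 in acf iaf-2 and 410.5 to 744 in iaf-1 iaf-2. Of the 6, 4 were called higher and 0 lower in acf iaf-1, 3 and 1 in acf iaf-2 and 1 and 1 in iaf-1 iaf-2. Higher in each was poi-2, at 60.7 to 94.8, 33.6 to 60.7 and 39.5 to 47.8 CPM against 0.696 to 1.37 in WT. In set-7 of series 112, where stk-36 rose too, the 6 summed to 371 to 549 CPM, with 1 higher and 1 lower. In acf they summed to 887 to 1038 CPM in series 112, and to 85.1 to 95.6 against 70.9 to 79.3 in series 111, where stk-36 rose as well. Most of the sum in isw was mfa-1, a pheromone precursor gene, at 17614 to 21611 CPM against 10.3 to 18.6 in WT, and matA-1 was at 0 there. Markers of conidia, the asexual spores, stood apart as well. Of 4 tested, con-6 and eas were called higher in isw, in acf iaf-2 and in the triple mutant of both series, con-8 was lower in isw and con-10 was lower in the triple mutant of series 112. In series 118 con-6, a gene of conidiation, had 11.3 to 13.6 CPM in isw, 9.55 to 14.8 in the triple mutant and 2.78 to 4.26 in acf iaf-2 against 0.422 to 0.85 in WT. The spore coat gene eas had 79.1 to 159.5, 106 to 479 and 75.0 to 365 CPM against 15.9 to 28.5. The 5 conidial markers summed to 238 to 367 CPM in isw and 313 to 757 in the triple mutant against 223 to 596 in WT, ranges that overlapped. The part of both marker lists in the rise of the kinase genes was not tested.

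**Figure D2:**
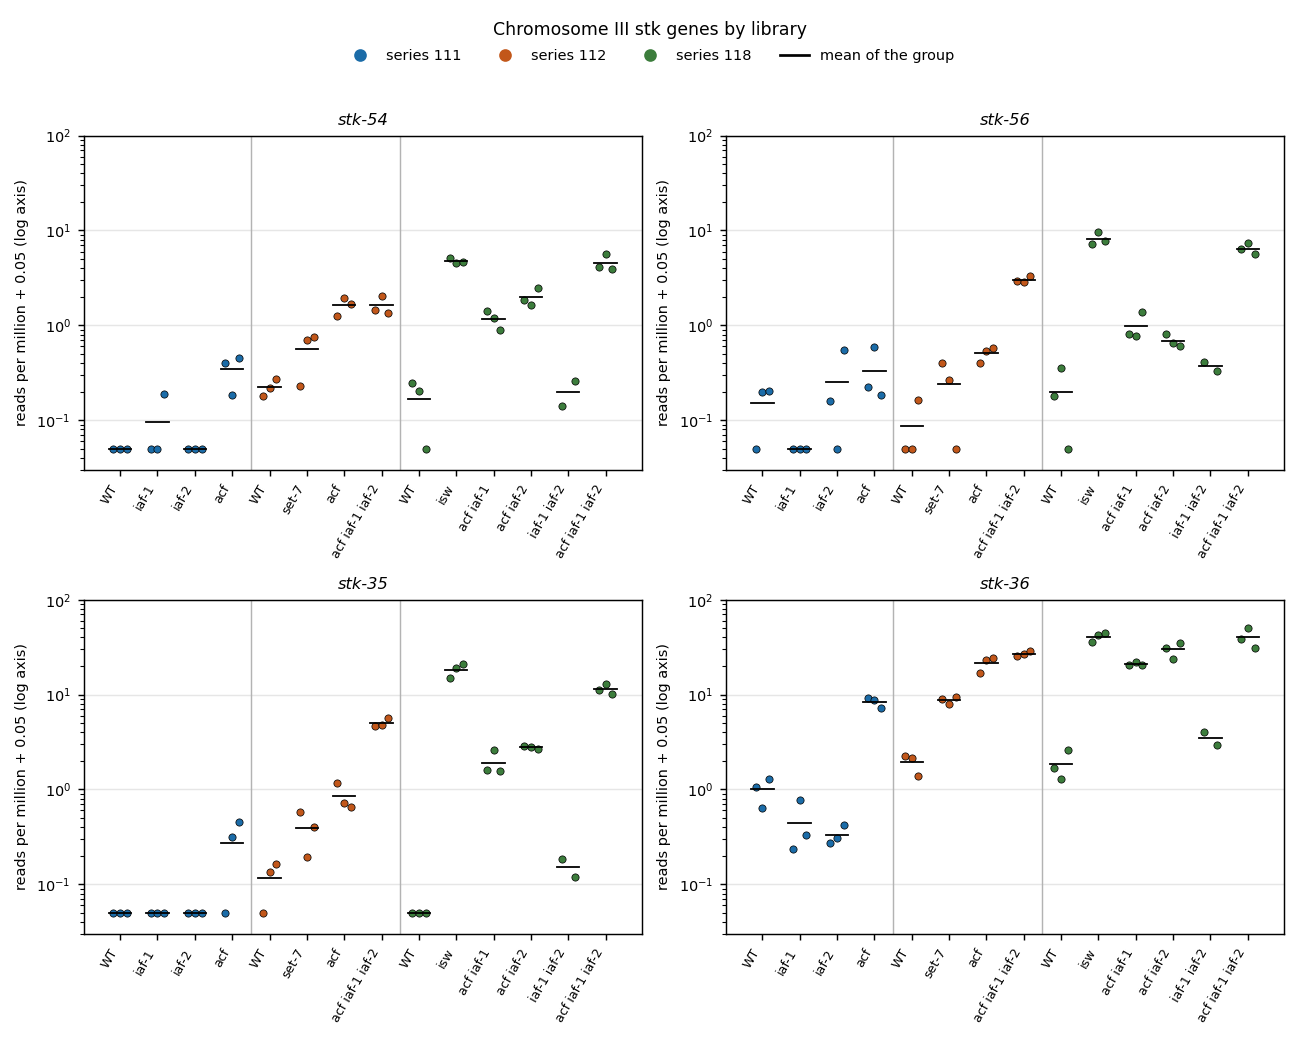
CPM (reads-per-million) + 0.05 on a log axis for stk-54, stk-56, stk-35 and stk-36 in every library (points, coloured by series, the bar marking the group mean), with groups on the horizontal axis. Within series 118 each gene has its highest group means in isw and the triple mutant, and iaf-1 iaf-2 lies below the other mutants.

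Across the whole family, the isw mutant of series 118 had 14 of 53 tested stk genes higher and 8 lower, where 29.0% and 19.3% of all genes tested were called. The median log2 change of the members was 0.05 against 0.08 for all genes and both shares were near the background. The triple mutant of the same series had 15 of 53 tested stk genes higher and 7 lower, where 29.8% and 21.3% of all genes tested were called, with a median of 0.08 against 0.05 for all genes. Besides the 4 genes above, 9 members were called higher in both, namely stk-11, stk-21, stk-29, stk-42, stk-44, stk-48, stk-53, stk-55 and stk-57. The call of stk-18 in isw was lost without isw replicate 2.

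Several of these started from low levels. Among them stk-21 had 0.431, 0.34 and 0.181 TPM in WT, 2.70, 2.10 and 2.97 in isw and 1.86, 2.71 and 2.25 in the triple mutant, a rise of 1.44 ± 0.20 (adjusted p = 9.35e-06) and 1.31 ± 0.20 (adjusted p = 2.77e-05). In iaf-1 iaf-2 it rose to 2.53 and 2.31 TPM (1.38 ± 0.22, adjusted p = 0.000184), and in acf iaf-2 the change was 0.72 ± 0.20 (adjusted p = 0.0113), the call there being lost on leaving out WT replicate 3 or acf iaf-2 replicate 1 or 3. In series 112 it was not called in any mutant, and in series 111 it was not tested. Of the neighbour pair on chromosome III, stk-42 stood at 3.03, 3.58 and 2.90 TPM in WT, 6.38, 8.19 and 7.85 in isw (1.02 ± 0.17, adjusted p = 7.64e-05), 7.18, 6.17 and 6.54 in the triple mutant (0.87 ± 0.17, adjusted p = 0.00034) and 9.05 and 13.3 in iaf-1 iaf-2 (1.53 ± 0.19, adjusted p = 1.13e-05). Its neighbour stk-41 had no read in WT of any series. It reached 0.861 and 1.05 TPM in iaf-1 iaf-2, from 16 reads, in CPM 5.88-fold above a floor of 3 reads for WT. Its call (adjusted p = 0.029, limma) was lost on leaving out any one of the 5 libraries. In isw it had 0, 1.11 and 0.392 TPM and was not called (adjusted p = 0.121, limma). The triple mutant held 10 reads in series 112 and 8 in series 118, in CPM 2.40-fold and 2.70-fold above that floor. The counting error of the mutant reads is not in these folds.

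Another pair of members at low levels, stk-29 and stk-53, rose in isw and in the triple mutant. In series 118 stk-29 went from 4.80, 4.2 and 5.21 TPM in WT to 8.93, 10.9 and 11.0 in isw and 10.2, 11.7 and 10.0 in the triple mutant (0.97 ± 0.15, adjusted p = 3.09e-05 and 1.02 ± 0.15, adjusted p = 1.88e-05), with no overlap. In the double mutants it had 3.76, 3.83 and 3.75 TPM in acf iaf-1, 4.73, 3.94 and 5.72 in acf iaf-2 and 4.76 and 6.39 in iaf-1 iaf-2, none of them called. The pattern of stk-53 was alike, with 2.11, 3.19 and 2.98 TPM in WT, 5.48, 6.36 and 6.41 in isw (0.92 ± 0.16, adjusted p = 0.000105) and 5.56, 6.07 and 5.37 in the triple mutant (0.84 ± 0.16, adjusted p = 0.000271). In the triple mutant of series 112 stk-53 rose as well, from 2.56, 4.97 and 2.91 to 5.80, 7.48 and 6.01 CPM (0.98 ± 0.27, adjusted p = 0.00558). By contrast stk-29 there had 11.0, 15.4 and 20.8 CPM against 15.5, 16.0 and 13.8 and was not called.

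Fewer members were called in the double mutants. Libraries labelled acf iaf-1 had 8 of 53 tested stk genes higher and 6 lower, where 17.7% and 13.9% of all genes tested were called, and the 14 calls became 9 without acf iaf-1 replicate 2. For acf iaf-2 there were 10 of 53 tested stk genes higher and 2 lower, where 19.5% and 5.16% of all genes tested were called. Scaling the TPM by median ratios gave 10 stk genes higher and 3 lower, and of all genes 1602 and 814 in place of 1824 and 482. The iaf-1 iaf-2 mutant had 10 of 53 tested stk genes higher and 1 lower, where 14.0% and 7.5% of all genes tested were called. Its 2 libraries differed from each other more than any other pair, and its 11 calls became 16 without replicate 1 and 6 without replicate 2, and 7, 5 and 6 without WT replicate 1, 2 or 3. A lone library is assumed there to vary like the other groups. With the replicate number as a block it had 7 calls, and with only the 2 groups fitted 4. Its members called in every alternative tried were stk-42, stk-21, stk-44 and stk-5, the last at 75.0 and 78.0 TPM against 45.8, 53.6 and 45.2 in WT (0.66 ± 0.14, adjusted p = 0.00257). There stk-55 was called lower (-0.41 ± 0.14, adjusted p = 0.0447), but not on leaving out any one of the 5 libraries.

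Some members were called higher in several mutants, and the next ones are ordered by that number of calls, which is a description. The most frequent was stk-48, called higher than WT in 10 of 11 comparisons. In series 118 it had 186, 198 and 189 TPM in WT, 305, 341 and 328 in acf iaf-1, 281, 290.1 and 255 in acf iaf-2 and 430.0, 389.8 and 365 in the triple mutant, with log2 changes of 0.76 ± 0.15 (adjusted p = 0.000861), 0.52 ± 0.15 (adjusted p = 0.0152) and 1.04 ± 0.15 (adjusted p = 1.88e-05). In isw it had 218, 303 and 248 TPM and in iaf-1 iaf-2 219.9 and 357. These 2 calls (0.41 ± 0.15, adjusted p = 0.0321 and 0.55 ± 0.17, adjusted p = 0.0261) were lost in 5 of 6 and 3 of 5 fits that left out a library. Series 112 had 186, 188 and 176 CPM in WT, 255, 227 and 242 in set-7, 229, 283 and 249 in acf and 268, 263 and 289 in the triple mutant, where each rose (0.47 ± 0.10, adjusted p = 0.00798, 0.50 ± 0.10, adjusted p = 0.00237 and 0.71 ± 0.10, adjusted p = 4.01e-05). In series 111 it had 57.2, 46.5 and 56.3 CPM in WT, 98.3, 100.2 and 143 in acf, 69.4, 81.2 and 76.5 in iaf-1 and 61.4, 64.2 and 72.7 in iaf-2, with changes of 1.41 ± 0.17 (adjusted p = 1.42e-05), 0.62 ± 0.17 (adjusted p = 0.017) and 0.30 ± 0.17 (adjusted p = 0.224), the last not called. Comparisons within a series share their WT libraries, so the calls of one series are not independent.

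Next came stk-36, given above and called higher in 9 and lower in 1 of 11 comparisons. After it came stk-57, called higher in 8 of 11. In detail, the values of stk-57 were as follows. It had 119.5, 112 and 121 CPM in WT of series 112, 181, 152 and 182 in set-7, 145, 139.5 and 154 in acf and 278, 244 and 250.1 in the triple mutant, the largest change being 1.26 ± 0.11 (adjusted p = 1.32e-07) in the last. Series 118 gave 83.6, 80.5 and 77.4 TPM in WT and 136, 128 and 137 in isw (0.73 ± 0.09, adjusted p = 3.34e-06). The double mutants acf iaf-1 and iaf-1 iaf-2, at 88.3, 90.2 and 96.6 and 79.6 and 94.8 TPM, were not called. For stk-44, called in 7, WT of series 118 had 6.43, 6.42 and 6.54 TPM against 18.3, 14.8 and 17.4 in isw, 14.5, 15.1 and 15.7 in acf iaf-2, 17.2, 20.3 and 15.1 in the triple mutant, 11.2 and 12.8 in iaf-1 iaf-2 and 9.20, 8.94 and 9.64 in acf iaf-1. All 5 mutants of that series lay above WT. In series 112 it was called in none of the 3 mutants, at 28.9, 26.3 and 19.8 CPM in WT and 25.2, 25.2 and 23.9 in the triple mutant.

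Also called higher in 7 comparisons was stk-11, once lower. In series 118 its 5 mutants had means of 42.5 TPM in acf iaf-1 to 31.8 in iaf-1 iaf-2 against 24.9 ± 1.75 in WT. The lower call was in iaf-2, with 35.7, 36.6 and 38.4 CPM against 71.6, 44.2 and 72.3 in WT (-0.76 ± 0.16, adjusted p = 0.00704). Another, stk-55, was called higher in 6 and lower in 1, and stk-58 higher in 4, among them iaf-1 at 60.4, 66.8 and 69.1 CPM against 43.4, 49.4 and 43.4 (0.63 ± 0.12, adjusted p = 0.00226). Counting all 11 comparisons, 17 members were called in the higher direction alone, 10 in the lower alone, 24 in both and 2, stk-39 and stk-47, in neither. As shares of the 53 these are 32.1%, 18.9%, 45.3% and 3.77%, where 32.2%, 25.4%, 35.4% and 7.03% of the 9376 genes tested at least once fell so.

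**Figure D3:**
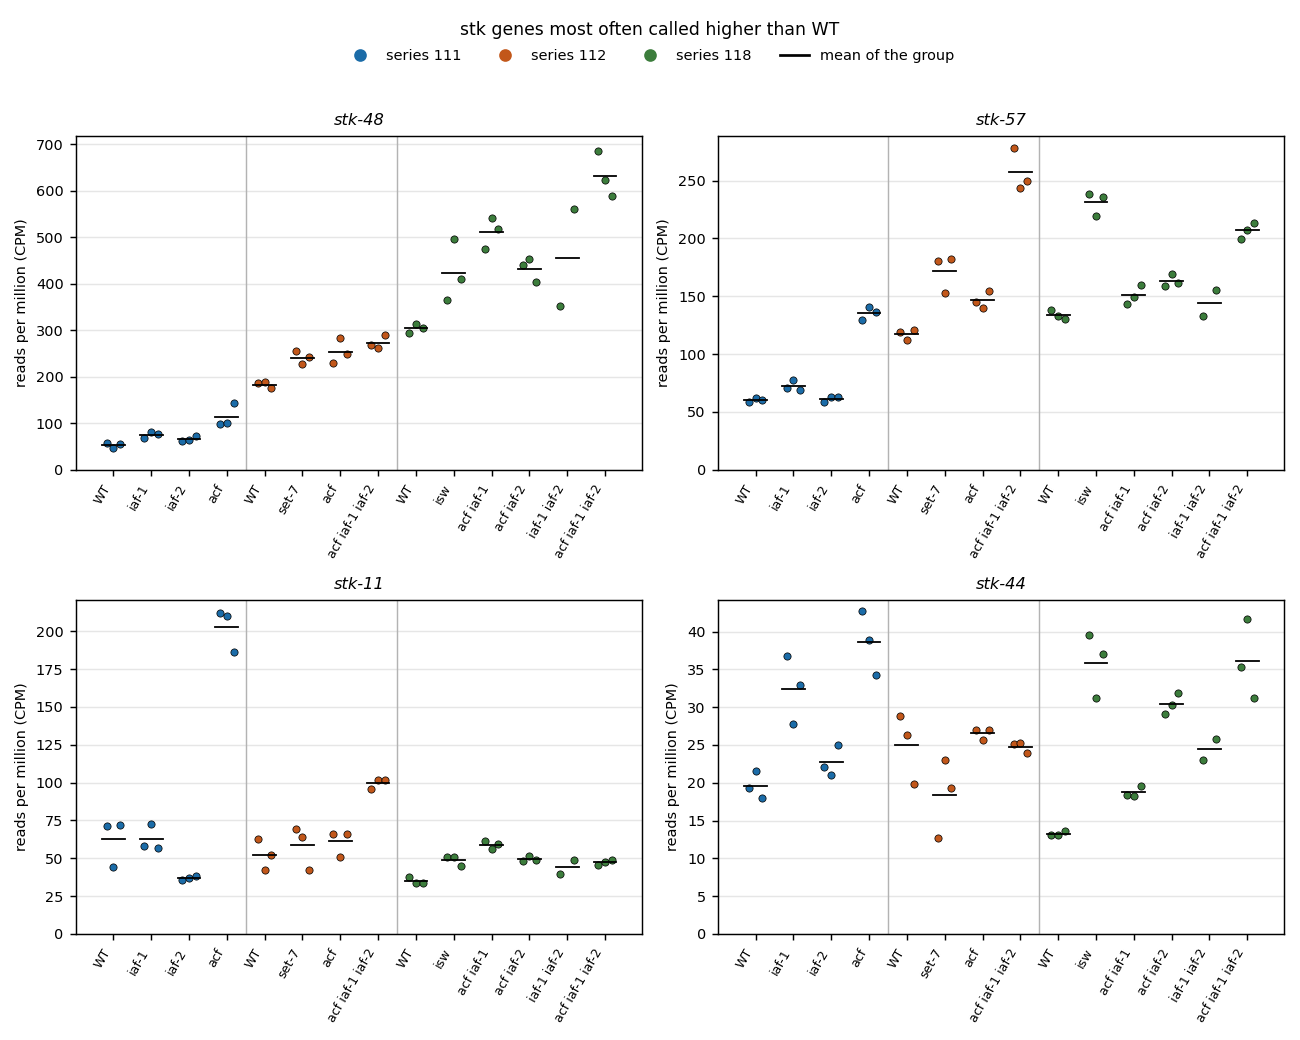
CPM (reads-per-million) for stk-48, stk-57, stk-11 and stk-44 in every library (points, coloured by series, the bar marking the group mean), with groups on the horizontal axis and the vertical axis from 0. Mutant libraries of stk-48 lie above WT in each series, while stk-44 in series 112 does not separate from WT.

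Among the falls, the largest in isw was that of stk-22, from 65.5, 68.7 and 59.7 TPM in WT to 29.0, 35.9 and 32.3 (-0.98 ± 0.16, adjusted p = 6.10e-05). In the triple mutant of that series it had 54.8, 54.6 and 55.7 TPM and was not called (-0.23 ± 0.16, adjusted p = 0.244), and the direct difference between the triple mutant and isw was 0.75 ± 0.16 (adjusted p = 0.00472). Lower in isw as well was stk-34, with 26.1, 23.7 and 25.9 TPM against 43.1, 38.8 and 38.7 (-0.65 ± 0.14, adjusted p = 0.00112), which was also lower in the triple mutant of series 118 (-0.43 ± 0.14, adjusted p = 0.0176) and of series 112, at 40.4, 62.6 and 55.6 CPM against 148, 117 and 111 (-1.12 ± 0.22, adjusted p = 0.000807). Weakly expressed stk-43 had 1.92, 4.07 and 3.99 TPM in WT, 1.56, 1.63 and 1.64 in isw and 1.9, 1.69 and 1.17 in the triple mutant (-0.68 ± 0.25, adjusted p = 0.0305 and -0.71 ± 0.25, adjusted p = 0.0246), with WT libraries far apart. The other calls in isw, for stk-37, stk-26, stk-8, stk-30, stk-33 and stk-43 itself, lay between -0.68 and -0.35, and on leaving out a library, the calls of stk-43 (WT replicate 2 or 3 or isw replicate 1 or 2 or 3), stk-37 (WT replicate 1 or 3 or isw replicate 3), stk-26 (WT replicate 1 or 2 or isw replicate 1 or 3), stk-8 (WT replicate 1 or 2 or isw replicate 1 or 2 or 3), stk-30 (WT replicate 1 or isw replicate 3) and stk-33 (WT replicate 1 or 3 or isw replicate 2) were lost. In acf iaf-1 the largest fall was that of stk-28, at 31.6, 23.8 and 25.9 TPM against 42.8, 38.6 and 36.4 (-0.53 ± 0.14, adjusted p = 0.00665). In acf iaf-1, leaving out a library, the calls of stk-46 (WT replicate 1 or 3 or acf iaf-1 replicate 2 or 3), stk-37 (WT replicate 1 or 3 or acf iaf-1 replicate 2) and stk-51 (WT replicate 1 or 3 or acf iaf-1 replicate 2 or 3) were lost, and in the triple mutant the calls of stk-43 (WT replicate 2 or 3 or triple mutant replicate 3), stk-34 (WT replicate 1 or triple mutant replicate 1 or 2) and stk-27 (WT replicate 1) were lost.

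Across mutants, stk-5 was lower in 5 comparisons, and stk-30 and stk-37 in 4 each. In series 112 stk-5 had 112, 165 and 95.9 CPM in WT, 71.3, 81.2 and 83.2 in set-7, 86.5, 78.1 and 81.6 in acf and 56, 64.9 and 68.7 in the triple mutant (-0.84 ± 0.15, adjusted p = 0.000194). In series 118 it was also lower in acf iaf-2, at 37.9, 34.4 and 40.0 TPM (-0.36 ± 0.13, adjusted p = 0.0471), and in the triple mutant, at 33.1, 40.1 and 38.5 (-0.36 ± 0.13, adjusted p = 0.0224), against 45.8, 53.6 and 45.2 in WT. On leaving out a library, its call in acf of series 112 was lost without WT replicate 2, whose level was the highest of the WT libraries, that in set-7 without WT replicate 2 or set-7 replicate 1, that in the triple mutant of series 118 without WT replicate 2 or triple mutant replicate 1, and that in acf iaf-2 without any one of the 6, as well as with the replicate block or no filter. Yet stk-5 was higher in iaf-1 iaf-2, as given above, and in acf of series 111. For stk-30, the lowest level was in the triple mutant of series 118, 20.9, 22.1 and 22.6 TPM against 36.3, 33.2 and 34.2 in WT (-0.64 ± 0.13, adjusted p = 0.000482), and it was lower as well in acf iaf-2 (-0.47 ± 0.13, adjusted p = 0.00993) and in acf of series 112 (-0.44 ± 0.11, adjusted p = 0.00794), each of these under every alternative. The values of stk-37 in series 118 were 13.4, 10.4 and 13.7 TPM in WT, 9.95, 8.80 and 8.52 in isw, 9.85, 8.22 and 8.48 in acf iaf-1, 9.20, 9.61 and 10.2 in the triple mutant (-0.33 ± 0.13, adjusted p = 0.04) and 17.2 and 16.6 in iaf-1 iaf-2, where it was not called. Its call in the triple mutant was lost without WT replicate 1 or 3 or triple mutant replicate 1 or 2, and with only the 2 groups fitted. Those in isw and acf iaf-1 were lost in 3 of 6 fits that left out a library, as given above.

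**Figure D4:**
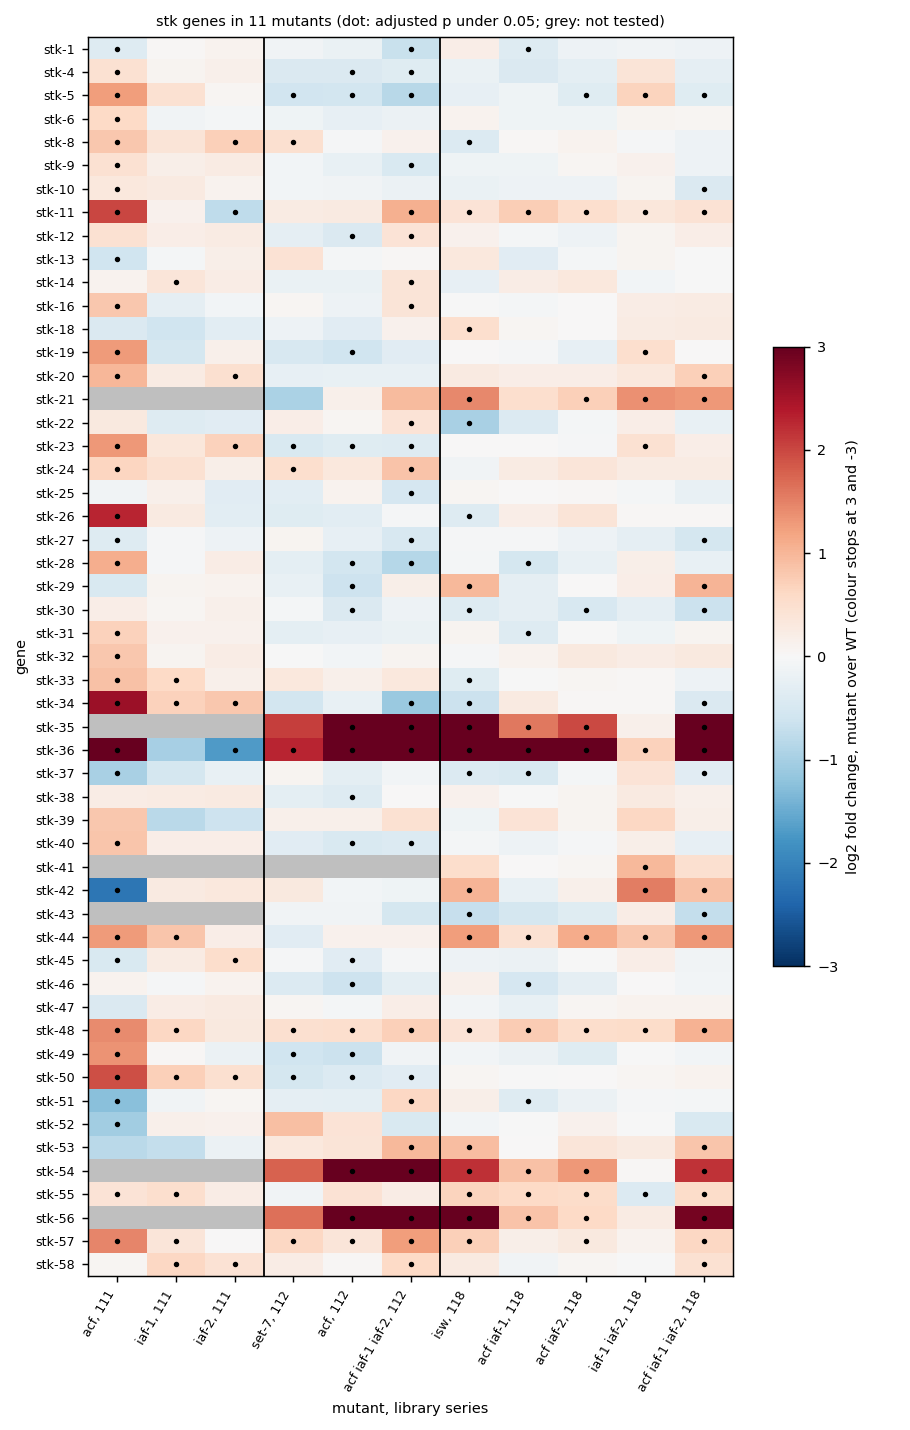
Log2 fold change of each stk gene (rows) in each mutant against WT of its own series (columns, with the series number), by edgeR for series 111 and 112 and limma for series 118; dots mark adjusted p under 0.05 and grey marks genes not tested. The strongest colour is in stk-35, stk-36, stk-54 and stk-56, and the acf column of series 111 differs from that of series 112.

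In series 112, libraries labelled set-7 had 5 of 52 tested stk genes higher and 4 lower, where 7.4% and 6.72% of all genes tested were called, shares close to the background in both directions. The median was -0.09 against 0.00 for all genes. With library totals in place of TMM scaling, the calls were 5 stk genes higher and 7 lower, and of all genes 536 and 897 in place of 647 and 588. The 9 calls became 5 without WT replicate 2 or without set-7 replicate 1, and 4 when only the 2 groups were fitted. Besides stk-36, the higher calls were stk-57 (0.62 ± 0.11, adjusted p = 0.00157), stk-24 (0.51 ± 0.14, adjusted p = 0.0238), stk-8 and stk-48, and the lower ones stk-49, stk-5, stk-50 and stk-23. Leaving out a library, the calls of stk-24 (WT replicate 2 or set-7 replicate 1), stk-8 (set-7 replicate 2), stk-49 (WT replicate 2 or set-7 replicate 1 or 2), stk-5 (WT replicate 2 or set-7 replicate 1) and stk-23 (WT replicate 2 or set-7 replicate 1 or 3) were lost. Abundant stk-50 had 205, 217 and 219 CPM against 341, 350.3 and 281 in WT (-0.52 ± 0.11, adjusted p = 0.00581).

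Libraries labelled acf in the same series had 6 of 52 tested stk genes higher and 14 lower, where 15.2% and 12.0% of all genes tested were called, and a median of -0.18 against 0.01 for all genes. The lower share exceeded the background, while the higher did not. The 20 calls became 10 without WT replicate 2, and 13, 10 and 12 without acf replicate 1, 2 or 3. The lower calls alone went from 14 to 5 of 52 without WT replicate 2, where 7.97% of all genes were lower, and to 5 of 52 without acf replicate 2, where 7.23% were, so that the gap to the background then nearly closed. The largest falls were stk-49, with 14.9, 13.4 and 16.3 CPM against 19.4, 31.3 and 20.0 (-0.63 ± 0.17, adjusted p = 0.0115), stk-46 (-0.62 ± 0.15, adjusted p = 0.00811), stk-29 (-0.62 ± 0.21, adjusted p = 0.0434) and stk-19 (-0.59 ± 0.16, adjusted p = 0.0137). On leaving out a library, the calls of stk-49 (WT replicate 2 or acf replicate 2), stk-29 (any of the 6) and stk-19 (WT replicate 1) were lost, while that of stk-46 held. The triple mutant had 15 of 52 tested stk genes higher and 11 lower, where 28.6% and 26.3% of all genes tested were called, with a median of 0.02 against 0.00 for all genes, and with library totals 13 stk genes higher and 16 lower, and of all genes 2090 and 2896 in place of 2501 and 2304, the median of all genes then being -0.13. Its falls were led by stk-34, given above, stk-28 with 21.9, 28.3 and 22.5 CPM against 56.9, 43.9 and 43.4 (-0.86 ± 0.14, adjusted p = 7.18e-05), stk-5 and stk-1 (-0.66 ± 0.14, adjusted p = 0.000962). Among its rises, after the 4 genes of chromosome III, were stk-57, stk-11 at 95.5, 102 and 101 CPM against 62.7, 42.3 and 52 (1.06 ± 0.19, adjusted p = 0.000367) and stk-24 (0.87 ± 0.14, adjusted p = 7.88e-05).

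The triple mutant was measured in series 112 and 118, each with its own WT. There 9 members were called higher in both series, namely stk-11, stk-35, stk-36, stk-48, stk-53, stk-54, stk-56, stk-57 and stk-58, 3 were called lower in both, stk-5, stk-27 and stk-34, and none in opposite directions. That is 9 of 15 higher calls in each series, and 3 of 11 lower calls in series 112 and 3 of 7 in series 118. Over all genes tested in both, 65.4% of the higher calls in series 112 and 64.6% of those in series 118 were higher in the other series too, 47.6% and 55.7% of the lower calls were lower in the other, and 1.38% and 1.57% of genes were called in opposite directions. The members' shares lay near or below these. For stk-27 the changes were -0.48 ± 0.14 (adjusted p = 0.00999) and -0.54 ± 0.16 (adjusted p = 0.00817). Under the same label, stk-44 showed 0.12 in series 112 and 1.3 in series 118, a difference that was not tested because the series were deposited in different units.

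Set against each other, isw and the triple mutant of series 118 had few members called. There were 4 of 53 tested stk genes higher and 2 lower, where 8.52% and 8.97% of all genes tested were called, and the 6 calls became 2 or 3 without isw replicate 1, 2 or 3 or triple mutant replicate 1 or 2. Among them stk-22, given above, was called under every alternative. Of the others, stk-48 was higher in the triple mutant (0.63 ± 0.15, adjusted p = 0.00941), as were stk-20 (0.46 ± 0.13, adjusted p = 0.0202) and stk-26 (0.44 ± 0.14, adjusted p = 0.0449), and stk-35 (-0.59 ± 0.17, adjusted p = 0.0242) and stk-27 (-0.50 ± 0.16, adjusted p = 0.036) were lower. Leaving out a library, the calls of stk-48 (isw replicate 1), stk-20 (triple mutant replicate 1 or 2 or isw replicate 1), stk-26 (triple mutant replicate 1 or 2 or isw replicate 1 or 2 or 3), stk-35 (triple mutant replicate 1 or 3 or isw replicate 2 or 3) and stk-27 (any of the 6) were lost. For stk-54 and stk-56 the differences of -0.02 ± 0.17 and -0.26 ± 0.18 were not called.

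The triple mutant against iaf-1 iaf-2, whose labels differ by acf, gave 12 of 53 tested stk genes higher and 10 lower, where 22.1% and 17.0% of all genes tested were called. The 4 chromosome III genes led the rises, by 3.55 for stk-35, 3.17 for stk-36, 2.63 for stk-56 and 2.14 for stk-54, with adjusted p from 1.11e-10 to 1.53e-07. The falls were led by stk-5 (-1.02 ± 0.14, adjusted p = 1.75e-05), stk-43 (-0.93 ± 0.28, adjusted p = 0.0133) and stk-37 (-0.75 ± 0.14, adjusted p = 0.00056), followed by stk-4 (-0.66 ± 0.19, adjusted p = 0.0104), the STE20-family kinase. On leaving out a library, the calls of stk-43 (iaf-1 iaf-2 replicate 1) and stk-4 (iaf-1 iaf-2 replicate 2) were lost, and fitting only the 2 groups gave 8 calls in place of 22. In series 112 the triple mutant against acf, whose labels differ by iaf-1 and iaf-2, gave 18 of 52 tested stk genes higher and 3 lower, where 25.0% and 23.2% of all genes tested were called. The higher share was above the background and the lower share below it. With library totals that comparison gave 12 stk genes higher and 6 lower, and of all genes 1805 and 2437 in place of 2183 and 2031. After stk-56 and stk-35, the largest rises were stk-51 (0.91 ± 0.13, adjusted p = 5.02e-05) and stk-57 (0.91 ± 0.11, adjusted p = 7.05e-06), and stk-12, the Rim15-like kinase, rose as well, from 50.2, 47.5 and 52.6 CPM in acf to 68.8, 100.1 and 83.5 (0.83 ± 0.14, adjusted p = 0.000146). The falls were stk-34 (-0.89 ± 0.22, adjusted p = 0.0048), stk-25 (-0.61 ± 0.18, adjusted p = 0.0122) and stk-1 (-0.45 ± 0.14, adjusted p = 0.0138), the last lost without acf replicate 1 or triple mutant replicate 2.

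In series 111 the libraries labelled acf stood out. They had 26 of 47 tested stk genes higher and 8 lower, where 31.6% and 34.4% of all genes tested were called, so that the higher share was above the background and the lower share below it. The members' median log2 change was 0.46 against -0.09 for all genes. With library totals in place of TMM scaling, the median of all genes moved to -0.39 and that of the members to 0.16, and the calls were 20 stk genes higher and 12 lower, and of all genes 1877 and 3790 in place of 2518 and 2747. Members called with small changes, such as stk-10 at 295, 280.3 and 289 CPM against 302, 258 and 299 (0.31 ± 0.10, adjusted p = 0.0122), were not called with library totals. With the close pairs summed, 22 stk genes were higher and 6 lower.

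Behind stk-36, the largest rises were stk-34, stk-26 and stk-11. For stk-34, WT had 82.1, 63.2 and 85.6 CPM and acf 323, 291 and 477 (2.56 ± 0.23, adjusted p = 1.26e-06). For stk-26 the values were 95.9, 53.4 and 92.9 and 254, 266 and 414 (2.27 ± 0.24, adjusted p = 4.55e-06), and for stk-11 they were 71.6, 44.2 and 72.3 and 212, 210.3 and 186 (2.00 ± 0.16, adjusted p = 5.13e-07). Abundant stk-50 went from 487, 348 and 487 to 1337, 1341 and 1367 CPM (1.93 ± 0.14, adjusted p = 2.44e-07). The germinal centre kinase stk-6 rose by 0.60 ± 0.13 (adjusted p = 0.00119). On the lower side were stk-42, with 0.174, 0.134 and 0.269 CPM against 0.637, 1.9 and 0.932 from 4 reads against 24 (-2.18 ± 0.71, adjusted p = 0.0169), stk-51 with 15.1, 15.1 and 12.5 against 43.6, 31.6 and 51.7 (-1.26 ± 0.15, adjusted p = 1.50e-05), stk-52 (-1.03 ± 0.18, adjusted p = 0.000256) and stk-37 (-0.97 ± 0.22, adjusted p = 0.00159). On leaving out a library, the call of stk-42 (WT replicate 2 or acf replicate 2) was lost. Members stk-21, stk-35, stk-41, stk-43, stk-54 and stk-56 had too few reads to be tested in this series.

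Libraries labelled acf in series 112 gave a different picture, and the difference was tested. The column names of the acf libraries of series 111 carry the tag pass0. No other group carries that tag, and the labels do not explain it. Of 47 members tested in both series, 23 had a higher value than WT in series 111 and a lower one in series 112, 8 were called so in both, 3 were called higher in both and 1 lower in both. Of the 7941 genes tested in both, 24.1% had values higher in series 111 and lower in series 112, 5.21% were called so, 6.33% were called higher in both and 4.16% lower in both, where the members had 48.9%, 17%, 6.38% and 2.13%. The interaction of acf with series, the change in series 112 minus that in series 111, had 2 of 49 tested stk genes higher and 28 lower, where 21.8% and 25.7% of all genes tested were called. The lower share was above the background and the higher share below it. With library totals the median of all genes moved to 0.37, and the calls were 6 stk genes higher and 20 lower, and of all genes 2916 and 1452 in place of 1797 and 2123. The largest differences were stk-34, with -2.88 ± 0.28 (adjusted p = 5.52e-06), stk-26, with -2.67 ± 0.33 (adjusted p = 3.83e-05), stk-50, with -2.42 ± 0.18 (adjusted p = 1.04e-06), and stk-49, with -2.06 ± 0.26 (adjusted p = 4.75e-05). For stk-50 the acf libraries of series 112 had 242, 229 and 241 CPM against 341, 350.3 and 281 in WT. In the other direction were stk-52 (1.35 ± 0.29, adjusted p = 0.0019) and stk-51 (0.88 ± 0.24, adjusted p = 0.00893). The members' median interaction was -0.74 against 0.02 for all genes. With the close pairs of series 111 summed, 2 of 50 members were higher and 24 lower.

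The hyphal and conidial markers are given beside this contrast. Of the 4 hyphal markers, act and chs-1 were called higher and Bml lower in acf of series 111. There chs-1 had 1174 to 1290 CPM against 348 to 441 in WT. In acf of series 112 only chs-1 was called, and it was lower. The interaction was called lower for act and chs-1. The conidial markers summed to 673 to 703 CPM in libraries labelled acf of series 111 against 32.7 to 118 in WT, and to 597 to 879 against 547 to 1107 in series 112. Most of the sum in acf of series 111 was eas, at 620.5 to 668 CPM against 15.5 to 78.5 in WT. In series 112 eas had 51.8 to 138 CPM against 6.54 to 31.9 and was not called. Of the 3 tested in series 111, con-8 and eas were called higher and con-10 lower, and con-13 was at 0 in WT. Of the 4 tested in series 112, con-6 was called higher and con-10 lower. The interaction was called for 1 of 4, con-8, which was lower. The part of both marker lists in the kinase changes was not tested. Series, whatever the tag pass0 stands for and any difference of culture between series cannot be told apart.

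**Figure D5:**
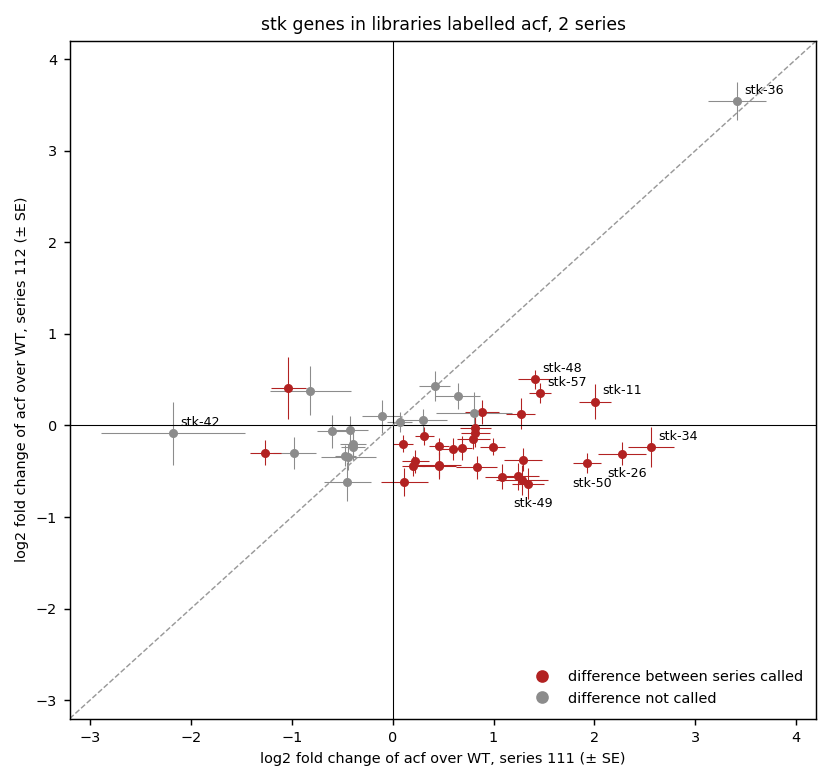
Log2 fold change over WT (± SE) of each stk gene in libraries labelled acf, series 111 on the horizontal and series 112 on the vertical axis, each by edgeR against its own WT; red marks genes whose difference between series was called and the dashed line marks equal change. Of the members tested in both, only stk-36 lies high in both, and stk-34, stk-26, stk-50 and stk-11 lie far to the right near 0 on the vertical axis.

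The single iaf mutants changed few members. The iaf-1 libraries had 9 of 47 tested stk genes higher and 0 lower, where 15.9% and 13.0% of all genes tested were called, with a median of 0.16 against -0.03 for all genes, and with library totals 6 stk genes higher and 1 lower, and of all genes 987 and 1496 in place of 1265 and 1034, the median of all genes then being -0.13. The iaf-2 libraries had 7 of 47 tested stk genes higher and 2 lower, where 10.1% and 9.48% of all genes tested were called, or 4 calls with only the 2 groups fitted. These counts leaned on the close pairs: with them summed, iaf-1 had 1 call and iaf-2 0, where the same step left 476 and 4 calls over all genes. They also moved with single libraries, from 4 calls without iaf-1 replicate 2 and 5 without WT replicate 3 to 14 without WT replicate 2 for iaf-1. For iaf-2 there were 3 calls without iaf-2 replicate 2, 4 without iaf-2 replicate 1 or WT replicate 1, 5 without iaf-2 replicate 3 and 14 without WT replicate 2. Called in every alternative was only stk-50 in iaf-1, with 598, 782 and 626 CPM against 487, 348 and 487 in WT (0.72 ± 0.13, adjusted p = 0.00199). The next were stk-44, at 36.8, 27.7 and 32.9 against 19.4, 21.5 and 18.0 (0.82 ± 0.15, adjusted p = 0.00153), stk-34 and stk-58, of which stk-34 was lost on leaving out WT replicate 1, 2 or 3 or iaf-1 replicate 2. In iaf-2 the rises were led by stk-34 at 153, 139 and 116 CPM (0.81 ± 0.22, adjusted p = 0.022), stk-8 (0.71 ± 0.15, adjusted p = 0.00844), stk-23 (0.69 ± 0.19, adjusted p = 0.0221) and stk-45 (0.52 ± 0.10, adjusted p = 0.00499). On leaving out a library, the calls of stk-34 (WT replicate 1 or 3 or iaf-2 replicate 1 or 2), stk-23 (WT replicate 1 or iaf-2 replicate 1 or 2) and stk-36 (WT replicate 1 or 3 or iaf-2 replicate 1 or 2 or 3) were lost.

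Kinases outside the stk names gave a like split between series. Of 9 genes of the 3 mitogen-activated protein kinase modules, 5 higher and 2 lower were called in acf of series 111, 0 higher and 1 lower in acf of series 112, 1 higher and 1 lower in isw and 1 higher and 1 lower in the triple mutant of series 118. In isw mak-2, the kinase of the fusion and mating pathway, was higher (0.35, log2) and os-2, the kinase of the osmotic pathway, was lower (-0.42). Of 25 other kinases that are not stk members, 13 higher and 4 lower were called in acf of series 111, 0 higher and 5 lower in acf of series 112, 2 higher and 6 lower in isw and 4 higher and 3 lower in the triple mutant of series 118. Among the lower ones in isw were pkac-1 (-0.31) and pkac-2 (-0.31), which encode catalytic subunits of the cyclic AMP-dependent kinase. The interaction of acf with series was lower for 5 of the 9 and 14 of the 25, with medians of -0.70 and -0.73. The backgrounds are those given above for each comparison.

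The backgrounds for the next lists were 31.6% of all genes tested higher and 34.4% lower in acf of series 111. They were 15.2% and 12.0% in acf of series 112 and 29.0% and 19.3% in isw. Of 8 genes listed with serine-threonine phosphatases, which take phosphate off again, 3 higher and 4 lower were called in acf of series 111, 0 higher and 1 lower in acf of series 112 and 1 higher and 1 lower in isw. The lower one in isw and in the triple mutant of series 118 was ppt-1 (-0.49 and -0.55), while the higher one, pp-1 (0.31 and 0.36), is a transcription factor of the mating pathway in spite of its name. Of 9 genes of the histidine kinase phosphorelay, which feeds the osmotic kinase module, 6 higher and 1 lower were called in acf of series 111, 0 higher and 2 lower in acf of series 112 and 2 higher and 0 lower in isw. Its photoreceptor member phy-2 was higher in all 5 mutants of series 118, by 1.31 in isw and 1.07 in the triple mutant.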

How the data were processed

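The authors deposited whole-number counts of reads per gene for series 111 and 112, and TPM values (transcripts-per-million, a level per gene length) for series 118. Per the submitters' processing notes, reads went through HISAT2 2.1.0 for alignment, featureCounts (Subread 1.6.2) for counting, SAMtools 1.9, and Trim Galore 0.4.4 with cutadapt 1.14 and FastQC. The genome build and the annotation remain not given in the sources used here. Per the labels, RNA libraries were made with a stranded mRNA kit.

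For the counts, the quasi-likelihood test of edgeR 4.0.16 was run in R 4.3.3 with TMM scaling, filterByExpr and robust estimation, all groups of a series entering the fit. Since series 118 held no counts, limma 3.58.1 was run on log2(TPM + 1) after keeping genes that reached 1 TPM in 2 or more libraries. Every p-value was adjusted by the Benjamini-Hochberg method over all genes tested in its fit, with a threshold of 0.05, and all tests were two-sided. The TPM values gave back whole reads for 10397 genes (100% of genes, tolerance 0.001), from which the totals and CPM of series 118 were computed. CPM in the text is per total reads, without TMM scaling. Each SE given with an edgeR change is the size of the change divided by the square root of its F statistic. It may be unreliable for small changes. Where a group had no read, 3 reads over its summed libraries served as its floor, and the other group's reads were taken as they are. Ratios carry exact 95% counting intervals. In the 15 comparisons, 11 are against WT, 3 are between mutants and 1 is the interaction of acf with series. Alternatives were median-ratio scaling, no filter, DESeq2 1.42.0, library totals only, other pseudocounts, edgeR on recovered reads, only the 2 groups fitted, a replicate block, close pairs summed and each library left out.

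The stk genes were matched by name, and 10363 of 10397 rows matched a locus of the RefSeq NC12 table, which gave gene order but no sequences here. The members, the lists of other kinases, phosphatases, phosphorelay genes and cell type markers, and the rule for naming genes were chosen with earlier results of these data known. That rule named members called one way in at least 4 comparisons with WT, up to 4 with the highest and 4 with the lowest change per comparison, the 5 highest and 5 lowest in WT of series 118 and those called in the interaction. Members named outside that rule (stk-18, stk-39, stk-47, stk-53), and which of the rule's members are described in full, were chosen after their values were seen. The fits were also run on simulated libraries with a fixed spread, few changed genes and no close pairs. These data differ in each of these, so that run does not show that the calls here hold.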

Additional observations from a re-analysis of the deposited data

Results flagged for a closer look

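The change of a stk gene in libraries labelled acf differed between series 111 and 112 in 30 of 49 members, by the interaction term of edgeR's quasi-likelihood test with Benjamini-Hochberg adjustment over all genes. That is 2 higher and 28 lower, where 21.8% and 25.7% of all genes tested were called. If each close pair of series 111 comes from 1 library, these p-values are too small. Below 0, where the change was lower in series 112, the log2 interaction was -2.88 for stk-34, -2.67 for stk-26, -2.42 for stk-50, -2.06 for stk-49, -1.96 for stk-19, -1.88 for stk-5, -1.83 for stk-11, -1.75 for stk-23, -1.73 for stk-28, -1.37 for stk-40, -1.31 for stk-20, -1.24 for stk-44, -1.20 for stk-57, -1.04 for stk-16, -1.02 for stk-31, -1.0 for stk-48, -0.99 for stk-4, -0.98 for stk-32, -0.97 for stk-12, -0.94 for stk-6, -0.94 for stk-8, -0.83 for stk-33, -0.82 for stk-46, -0.78 for stk-9, -0.74 for stk-30, -0.70 for stk-38, -0.52 for stk-10 and -0.39 for stk-14. Above 0 it was 0.88 for stk-51 and 1.35 for stk-52. Several of these members had opposite directions: 8 were called higher in series 111 and lower in series 112. That is 17% of the 47 members tested in both series, against 5.21% of all genes tested in both.

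In the triple mutant, 3 members lay outside the WT range on one side in every library of series 112 and on the opposite side in every library of series 118. Of the 8719 genes tested in both series, 5.06% did so, against 5.77% of the members. The log2 changes were -0.22 in series 112 and 0.72 in series 118 for stk-20, 0.40 in series 112 and -0.23 in series 118 for stk-22 and -0.35 in series 112 and 0.12 in series 118 for stk-50. None of the 3 was called in both series: stk-20 was called in series 118 alone, stk-22 was called in series 112 alone, stk-50 was called in series 112 alone. These differences between series were not tested, since the series were deposited in different units.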

How the results depend on the processing

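Each count of stk genes called was recomputed under median-ratio scaling, without a filter, with DESeq2, with another pseudocount, with edgeR on recovered reads, with only the 2 groups fitted, with the close pairs of series 111 summed, with the replicate block and without each library, and with library totals only, which was chosen after seeing the data. Of 267 calls in the 15 comparisons, 148 held under every alternative run, 105 were lost on leaving out some library, and no member's value changed sign while called. Outside the fits that left out a library, counts moved by over 1.5 times in these cases: with the close pairs summed, iaf-1 had 1 and iaf-2 0, and over all genes 331 higher and 145 lower, and 0 and 4. With only the 2 groups fitted, iaf-2 had 4, set-7 4, iaf-1 iaf-2 4 and the triple mutant against iaf-1 iaf-2 8, and over all genes iaf-2 had 349 and 443, set-7 282 and 165, iaf-1 iaf-2 750 and 244 and the last comparison 1322 and 816. With the replicate block, iaf-1 iaf-2 had 7 in place of 11. The cause was not tested, beyond the smaller number of samples in the fits with close pairs summed or 2 groups. Leaving out each library in turn gave 31 to 35 for acf in series 111, 4 to 14 for iaf-1, 3 to 14 for iaf-2, 5 to 13 for set-7, 10 to 22 for acf in series 112, 23 to 25 for the triple mutant in series 112, 16 to 21 for isw, 9 to 15 for acf iaf-1, 8 to 12 for acf iaf-2, 5 to 16 for iaf-1 iaf-2, 18 to 21 for the triple mutant in series 118, 14 to 19 for the triple mutant against acf, 2 to 6 for the triple mutant against isw, 15 to 25 for the triple mutant against iaf-1 iaf-2 and 26 to 31 for the acf by series interaction.

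Replicate numbers shared between groups did not pair the libraries: same-numbered deviations correlated between -0.40 and 0.27, and in no comparison were all above 0.1. With the replicate block the counts were 34 for acf in series 111, 8 for iaf-1, 8 for iaf-2, 9 for set-7, 17 for acf in series 112, 26 for the triple mutant in series 112, 22 for isw, 15 for acf iaf-1, 11 for acf iaf-2, 7 for iaf-1 iaf-2, 22 for the triple mutant in series 118, 21 for the triple mutant against acf, 6 for the triple mutant against isw, 18 for the triple mutant against iaf-1 iaf-2 and 29 for the acf by series interaction. Depth limits the near-silent members most, since stk-35, stk-41, stk-54 and stk-56 rest on few reads in WT, and stk-41 was not tested in series 111 or 112.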

Other observations

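Taken as a sum, the 53 stk genes made up 3221 to 3539 TPM in libraries labelled acf of series 111 against 1451 to 2136 in WT, with no overlap. The iaf-2 libraries, at 2175 to 2300 TPM, did not overlap WT either, while those of iaf-1, at 2037 to 2448, did. In series 112 the sums were 1388 to 1419.7 in acf, 1380.0 to 1419.5 in set-7, 1455 to 1663 in the triple mutant and 1388 to 1662 in WT. In series 118 they were 1659.8 to 1831 TPM in WT, 1809 to 1993 in isw and 2099 to 2179.9 in the triple mutant. The double mutants had 1891 to 1986 in acf iaf-1, 1871 to 2080 in acf iaf-2 and 1760 to 2403 in iaf-1 iaf-2. Of that series the triple mutant, acf iaf-1 and acf iaf-2 did not overlap WT. These sums lean on a few abundant members such as stk-50 and stk-48 and were not tested.

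Both members that were called in no comparison with WT had reads in every library. Of them stk-39 had 61.3 ± 5.69 TPM in WT of series 118 (SD, n = 3), 55.8 ± 6.05 in isw and 69.1 ± 1.84 in the triple mutant, and stk-47 had 28.9 ± 4.37, 27.2 ± 1.55 and 31.1 ± 2.66 TPM. That they were not called does not show that they did not change.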
